A study of Mus musculus with 12 samples.

Results

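Cells of the group labelled CD3_CD28_ICOS were compared with cells of the group labelled CD3_CD28, with 3 RNA-seq libraries in each group, 6 of the 12 libraries of the series. All libraries were made from primary CD4+ T cells of C57BL/6 mice, and the labels name no mutation, transgene, age or sex. CD3_CD28 cells received anti-CD3 bound to the plate and anti-CD28 in solution. For CD3_CD28_ICOS cells all antibodies were in solution: those to CD3 and CD28, and one to ICOS. Both groups were stimulated for 72 h. The other libraries, 3 each, were CD3 cells, given plate-bound anti-CD3 alone for 72 h, and Unstimulated cells, taken fresh without activation. Their levels are quoted below, and they entered the level filter and the shared estimate of spread behind the p-values. The form of the anti-CD3 antibody changed together with the addition of anti-ICOS, so the parts of the antibody format and of ICOS in every difference below cannot be told apart. The series' design text speaks of transduced cells, but no label of these libraries names a vector. Whether the 3 libraries of each group represent different mice or cultures is not stated. The p-values therefore reflect variation from library to library, part of which may be technical.

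The genes described are those with a level of at least 10 CPM (reads per 1000000 reads assigned to genes) in at least 3 of the 12 libraries, which were 9826 of 17203 genes listed. Just inside that limit stood Suv39h2, with a third-highest level of 10.0 CPM. Just outside stood Tyrobp and Cdpf1, with 9.99 CPM each. Fold changes are differences of mean log2(CPM + 1), CD3_CD28_ICOS minus CD3_CD28, with the standard error (SE) of a limma fit, and a call means an adjusted p under 0.05 over the 9826 genes. This scale understates the change of genes at low levels. CPM carries no correction for gene length, so levels are compared between libraries and not between genes.

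A naive CD4+ T cell begins to divide when its antigen receptor, which signals through the CD3 chains, is engaged together with a costimulatory receptor. CD28 is present on resting cells and raises interleukin-2 output, glucose uptake and survival. ICOS, a relative of CD28 that appears after activation, couples strongly to phosphoinositide 3-kinase (PI3K) and is best known for its role in follicular helper T cells. Anti-CD3 fixed to plastic holds receptors together, whereas soluble anti-CD3 can do so only where another cell or protein gathers it.

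Of the 9826 genes, 3787 were higher in CD3_CD28_ICOS cells (38.5% of those tested) and 2403 were lower (24.5%), 63% in either direction, at an adjusted p under 0.05. A change of at least 1 log2 unit was called for 1066 higher (10.8%) and 682 lower genes (6.94%). The median log2 fold change over all tested genes was 0.13, with a 10th percentile of -0.75 and a 90th of 1.05. CD3_CD28 and CD3_CD28_ICOS values were fully separate for 64.8% of the genes. Every count of called list members below is to be read beside the 38.5% higher and 24.5% lower of all tested genes. Some lists lay near those shares, such as the cell cycle regulators with 34.6% higher and 30.8% lower. The split of calls depended on scaling: 61.2% of calls were higher on the deposited CPM scale, 48.6% after median of ratios scaling, which moved the median gene by -0.14 log2 units, and 50.9% after quantile normalization, which moved it by -0.12. None of the genes called on the deposited scale was called in the opposite direction under these scalings. The plot of change against level shows all tested genes. The B cell gene Ms4a1 is labelled among the rises, and Mt2 and Gzmb are labelled among the falls.

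**Figure D1:**
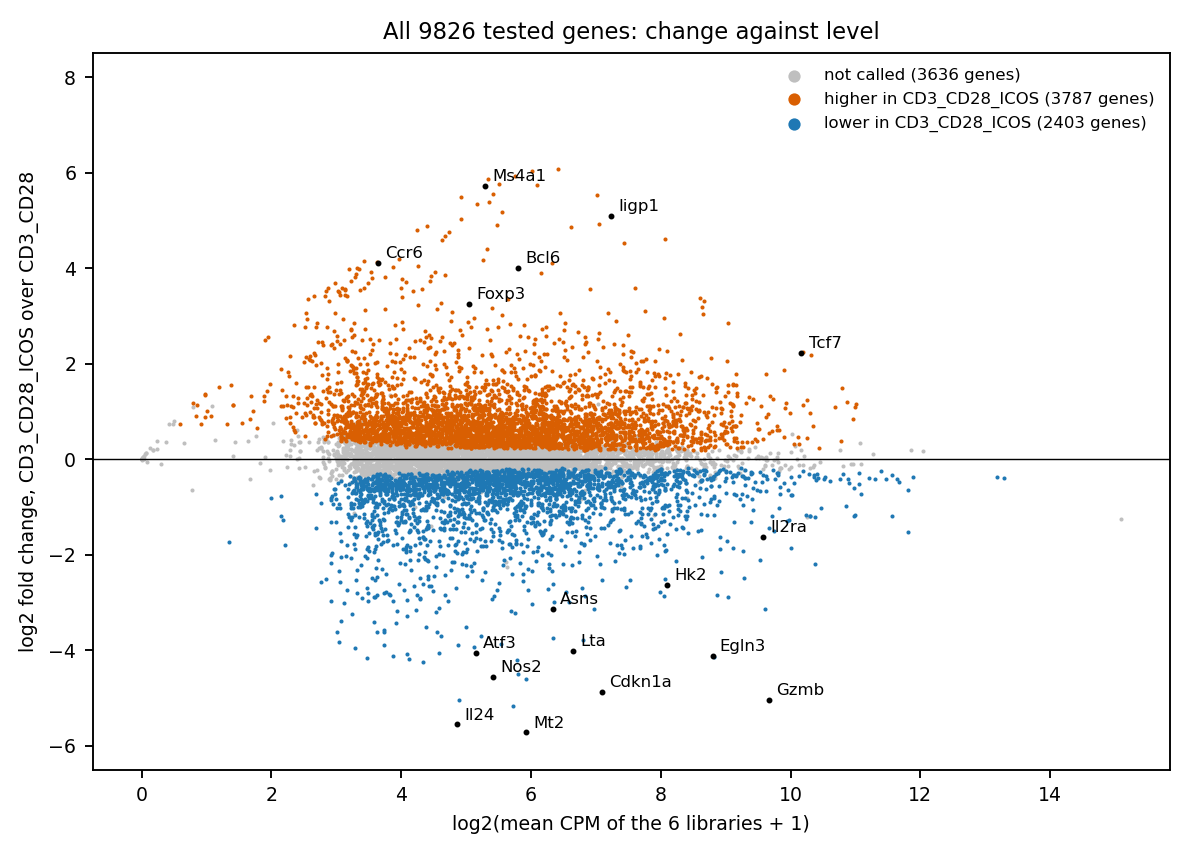
Log2 fold change (CD3_CD28_ICOS over CD3_CD28, y axis) against the log2 of the mean CPM of the 6 libraries plus 1 (x axis), 1 point per tested gene, 9826 in all. Orange points are the 3787 genes called higher, blue points the 2403 called lower, and grey points the 3636 not called; black points mark genes named in the text.

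Estimated depth was 22300000 to 25500000 reads in the CD3_CD28 libraries and 26700000 to 37500000 reads in the CD3_CD28_ICOS libraries. In CD3_CD28 replicate 1, the ribosomal RNA gene CT010467.1 took 11.8% of the reads, against 1.60 to 2.73% in replicates 2 and 3 and 1.37 to 1.78% in the CD3_CD28_ICOS libraries. This lowers every other CPM value of that library. CD3_CD28_ICOS replicate 2 lay nearer to the CD3_CD28 libraries than its fellows did, with a correlation across genes of 0.873 to 0.888 against 0.825 to 0.846. Several results that turn on either library are given with and without it, and other list counts below also shift when either is left out.

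T cell markers were abundant in all 6 libraries, and B cell transcripts were found in the CD3_CD28_ICOS libraries. Cd4, the coreceptor, stood at 859, 1018 and 1063 CPM in CD3_CD28 cells and 940.1, 1178 and 1144 CPM in CD3_CD28_ICOS cells, with overlapping values (log2 fold change 0.15 ± 0.10, adjusted p = 0.212); it was called higher only without CD3_CD28_ICOS replicate 1 (0.25, adjusted p = 0.0399), of the alternatives run. B cell markers were nearly absent from the CD3_CD28 libraries and present in all 3 CD3_CD28_ICOS libraries: all 14 of the 14 tested markers were higher, with a median log2 fold change of 4.60. Ms4a1, which encodes CD20, was at 0.484, 0.179 and 0.196 CPM in CD3_CD28 cells and 107, 30.3 and 91.1 CPM in CD3_CD28_ICOS cells (log2 fold change 5.73 ± 0.44, adjusted p = 1.16e-06), and Igkc, the kappa light chain constant region, at 1.58, 1.03 and 1.02 CPM in CD3_CD28 cells and 256, 70.5 and 178 CPM in CD3_CD28_ICOS cells. Summed over the list, B cell markers came to 127, 156 and 134 CPM in CD3_CD28 cells, nearly all of it Ighm at 109.7, 145 and 123 CPM, and to 2155, 1055 and 1859 CPM in CD3_CD28_ICOS cells. The sum was 1121, 1072 and 1958 CPM in CD3 cells and 1894, 1234 and 1388 CPM in Unstimulated cells, so the CD3_CD28 group was the one that stood apart. In bulk RNA, fewer cells of a type and less RNA per cell cannot be told apart. CD3_CD28_ICOS replicate 2 was the lowest of its group for all 14 tested markers, and without it the median was 5.03.

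MHC class II genes, which present peptides to CD4+ T cells and are expressed by B cells, followed the same libraries. Of 10 tested, 9 were higher and 0 lower, with 10 higher without CD3_CD28_ICOS replicate 2. Ciita, the master regulator of the class, was at 0.308, 0.0895 and 0.157 CPM in CD3_CD28 cells and 87.1, 25.5 and 63.4 CPM in CD3_CD28_ICOS cells, and H2-Aa at 5.63, 5.37 and 3.69 CPM in CD3_CD28 cells and 269.6, 82.5 and 218 CPM in CD3_CD28_ICOS cells (log2 fold change 4.87 ± 0.44, adjusted p = 6.44e-06). Of 11 tested macrophage and neutrophil markers, 3 were higher and 1 lower, and C1qa, C1qc and Csf3r were listed at 0 in all 6 libraries. The summed myeloid level was 85.99, 136 and 140.0 CPM in CD3_CD28 and 311, 203 and 289.6 CPM in CD3_CD28_ICOS libraries, without overlap and with replicate 2 the lowest CD3_CD28_ICOS library. Their part in the other results was not tested. Mpeg1, a myeloid gene also transcribed in B cells, was at 0.352, 0.269 and 0.275 CPM in CD3_CD28 cells and 28.2, 8.60 and 26.03 CPM in CD3_CD28_ICOS cells. Of the CD8 and NK markers, Cd8a rose, from 1.71, 1.52 and 1.49 CPM to 46.6, 20.9 and 18.2 CPM (log2 fold change 3.40 ± 0.34, adjusted p = 2.79e-06), while its partner Cd8b1 was at 20.6, 27.97 and 25.5 CPM in CD3_CD28 cells and 30.2, 23.9 and 20.5 CPM in CD3_CD28_ICOS cells, with overlapping values. Of 4 tested CD8 and NK genes, 2 were higher and 0 lower, and the natural killer receptor Ncr1 was at or near 0 in all 6 libraries. Of 3 erythroid and 10 pancreatic markers tested, 0 were called in either direction. These genes passed the level filter through the Unstimulated libraries alone. Summed pancreatic levels averaged 1561 CPM there, 1.46 CPM in CD3_CD28 and 0.614 CPM in CD3_CD28_ICOS libraries. Summed erythroid levels averaged 153, 0.867 and 4.43 CPM in the same groups. The erythroid sums did not overlap, with at most 1.04 CPM in CD3_CD28 and at least 1.87 CPM in CD3_CD28_ICOS libraries. At levels so low in both groups, the lack of calls cannot show that these markers were unchanged.

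Genes of the naive and quiescent state rose with few exceptions. Of 27 tested, 25 rose and 2 fell, with a median log2 fold change of 1.58 beside 0.13 over all genes. Tcf7 (chr11:52252371-52283014, minus strand, GRCm38), which encodes the factor TCF1 of naive and memory T cells, was at 329.8, 485 and 411 CPM in CD3_CD28 cells and 1906, 1774 and 1996 CPM in CD3_CD28_ICOS cells (log2 fold change 2.22 ± 0.13, adjusted p = 2.09e-08). All 3 CD3_CD28_ICOS values lay above the CD3_CD28 values, and the means of the other groups were 2272 CPM (Unstimulated) and 759.7 CPM (CD3). S1pr1, the receptor by which T cells leave lymph nodes, rose from 31.9, 48.9 and 54.6 CPM to 350.0, 361 and 451 CPM (log2 fold change 3.10 ± 0.18, adjusted p = 3.05e-08). Its activator Klf2, a quiescence factor, rose from 15.7, 24.7 and 24.7 CPM to 138, 184 and 161 CPM. The Unstimulated mean of Klf2 was 558 CPM. Txnip, an inhibitor of glucose uptake, gave the largest log2 change of the list, 3.38 ± 0.23, with 53.6, 69.2 and 70.8 CPM in CD3_CD28 cells and 434, 779 and 913 CPM in CD3_CD28_ICOS cells. Klf3 (3.05 ± 0.26), Dapl1 (2.77 ± 0.35) and the costimulatory receptor Cd27 (2.40 ± 0.14) rose as well, and none of their groups overlapped. Bach2 and Foxo1, which restrain effector differentiation, rose by smaller amounts, 1.04 ± 0.09 and 0.82 ± 0.10. The exceptions were Igfbp4, a binding protein of insulin-like growth factors that marks naive T cells, which fell (279.9, 315 and 322 CPM against 28.4, 99.1 and 50.4 CPM, log2 fold change -2.52 ± 0.33, adjusted p = 6.23e-05), and Il7r, the interleukin-7 receptor alpha chain, which fell by 0.91 log2 units.

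T cell receptor genes rose modestly. Of 37 tested genes of the receptor complex and its proximal signalling, 24 were higher and 5 lower; after median of ratios scaling the counts were 22 and 8, and the lower count was 2 without CD3_CD28 replicate 3 and 3 without CD3_CD28 replicate 2 or any 1 of the CD3_CD28_ICOS libraries. Cd3e, a signalling chain of the complex, was at 177, 224 and 212 CPM in CD3_CD28 cells and 406, 383 and 410.1 CPM in CD3_CD28_ICOS cells (log2 fold change 0.97 ± 0.10, adjusted p = 1.61e-06). Cd3g and Cd3d rose by 1.06 ± 0.09 and 0.83 ± 0.10. Dgka, a diacylglycerol kinase that dampens receptor signals, rose from 239, 222 and 259 CPM to 549, 732 and 801 CPM, and Ptprc, the phosphatase CD45, from 1327, 1219.9 and 1342 CPM to 2683, 2766 and 2858 CPM. Of 19 T cell identity genes, 14 were higher and 0 lower on the deposited scale, with 14 higher and 2 lower after median of ratios scaling. Ets1, a factor that keeps lymphocytes quiescent, was among the genes that gained most in CPM, from 894, 960.4 and 919 CPM to 2456, 2702 and 2701 CPM.

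The costimulatory receptors themselves divided. Of 18 tested, 7 were higher and 8 lower, with 5 and 9 without CD3_CD28 replicate 1 or after median of ratios scaling. Icos, the receptor addressed by the added antibody, was lower in the group that received anti-ICOS, at 230.1, 216 and 253 CPM in CD3_CD28 cells and 148, 139.6 and 142 CPM in CD3_CD28_ICOS cells (log2 fold change -0.70 ± 0.11, adjusted p = 6.23e-05). All 3 CD3_CD28_ICOS values lay under the lowest CD3_CD28 value, and above the means of CD3 cells (85.5 CPM) and Unstimulated cells (42.7 CPM). Cd28 was slightly higher, at 420.4, 509 and 467 CPM in CD3_CD28 cells and 529, 625 and 575 CPM in CD3_CD28_ICOS cells (log2 fold change 0.31 ± 0.10, adjusted p = 0.0149), but that call was lost after median of ratios scaling (0.16, adjusted p = 0.126), without CD3_CD28 replicate 1 (0.24, adjusted p = 0.0606) and without CD3_CD28_ICOS replicate 2 (0.25, adjusted p = 0.0575). The inducible TNF receptors fell together: Tnfrsf9 (4-1BB) was at 1262, 1090.1 and 1228 CPM in CD3_CD28 cells and 280.5, 312 and 241 CPM in CD3_CD28_ICOS cells (log2 fold change -2.10 ± 0.13, adjusted p = 2.57e-08), and Tnfrsf4 (OX40) and Tnfrsf18 (GITR) fell by 1.55 and 1.25 log2 units. The SLAM family receptor Slamf6 rose from 12.7, 22.02 and 19.6 CPM to 221, 187 and 250.5 CPM (log2 fold change 3.55 ± 0.18, adjusted p = 1.50e-08). Ctla4, an inhibitory relative of Cd28, was at 325, 267 and 211 CPM in CD3_CD28 cells and 260.5, 403 and 318 CPM in CD3_CD28_ICOS cells, with overlapping values. Pdcd1, which encodes PD-1, rose from 11.9, 9.93 and 13.5 CPM to 42.8, 22.1 and 37.3 CPM (log2 fold change 1.41 ± 0.32, adjusted p = 0.00223). The ICOS ligand Icosl, a gene of antigen-presenting cells, did not pass the level filter and was at 0.44, 0.448 and 0.51 CPM in CD3_CD28 cells and 3.25, 0.486 and 1.73 CPM in CD3_CD28_ICOS cells.

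PI3K pathway genes, the route to which ICOS couples, gave 12 higher and 4 lower of 28 tested, 42.9% and 14.3% beside 38.5% and 24.5% of all tested genes. Sesn1, an inhibitor of the growth kinase complex mTORC1, was at 24.2, 39.8 and 41.8 CPM in CD3_CD28 cells and 193, 178 and 209.7 CPM in CD3_CD28_ICOS cells (log2 fold change 2.46 ± 0.21, adjusted p = 6.74e-07). Phlpp1, a phosphatase of AKT, was at 14.5, 22.8 and 18.6 CPM in CD3_CD28 cells and 88.1, 67.3 and 114 CPM in CD3_CD28_ICOS cells (log2 fold change 2.20 ± 0.18, adjusted p = 2.53e-07). Neither gene's groups overlapped. Sesn3 rose by 1.32 ± 0.11, Pik3ip1, a membrane inhibitor of PI3K, by 1.19 ± 0.19, and Inpp4b, a phosphatase of PI3K products, by 1.01 ± 0.10. Pik3cg, the gamma catalytic subunit, fell by 1.14 log2 units and Ddit4, a stress-induced brake on mTORC1, from 441, 519 and 405 CPM to 139, 312 and 175 CPM.

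The follicular helper list gave 11 higher and 2 lower of 14 tested, with a median of 1.52. Bcl6 (chr16:23965052-23988852, minus strand, GRCm38), the factor that defines these cells, was at 5.06, 6.58 and 4.94 CPM in CD3_CD28 cells and 108, 87.5 and 117 CPM in CD3_CD28_ICOS cells (log2 fold change 4.01 ± 0.24, adjusted p = 4.99e-08). It was lower in CD3_CD28 cells than in Unstimulated (37.1, 27.98 and 28.7 CPM) or CD3 cells (64.5, 27.9 and 41.1 CPM). Cxcr5, the follicle homing receptor, was at 7.17, 13.02 and 8.63 CPM in CD3_CD28 cells and 62.5, 26.9 and 51.4 CPM in CD3_CD28_ICOS cells (log2 fold change 2.13 ± 0.37, adjusted p = 4.03e-04). Pou2af1, a coactivator of B cells that some helper T cells also express, rose from 4.75, 9.89 and 11.6 CPM to 129.6, 37.7 and 83.2 CPM. Not every gene of the list went that way. Cd200 fell from 147, 192 and 183 CPM to 63.3, 60.4 and 66.2 CPM, Icos fell as given above, and Il21, the cytokine of follicular helper cells, did not pass the level filter and was at 17.9, 1.39 and 4.88 CPM in CD3_CD28 cells and 0.0533, 0.262 and 0 CPM in CD3_CD28_ICOS cells. Bcl6, Cxcr5 and Pou2af1 are also B cell genes, and CD3_CD28_ICOS replicate 2, lowest for every tested B cell marker, was lowest of its group for 12 of 14 genes of this list, beside 47.2% of all tested genes. The part of the B cell transcripts in these values was not tested.

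**Figure D2:**
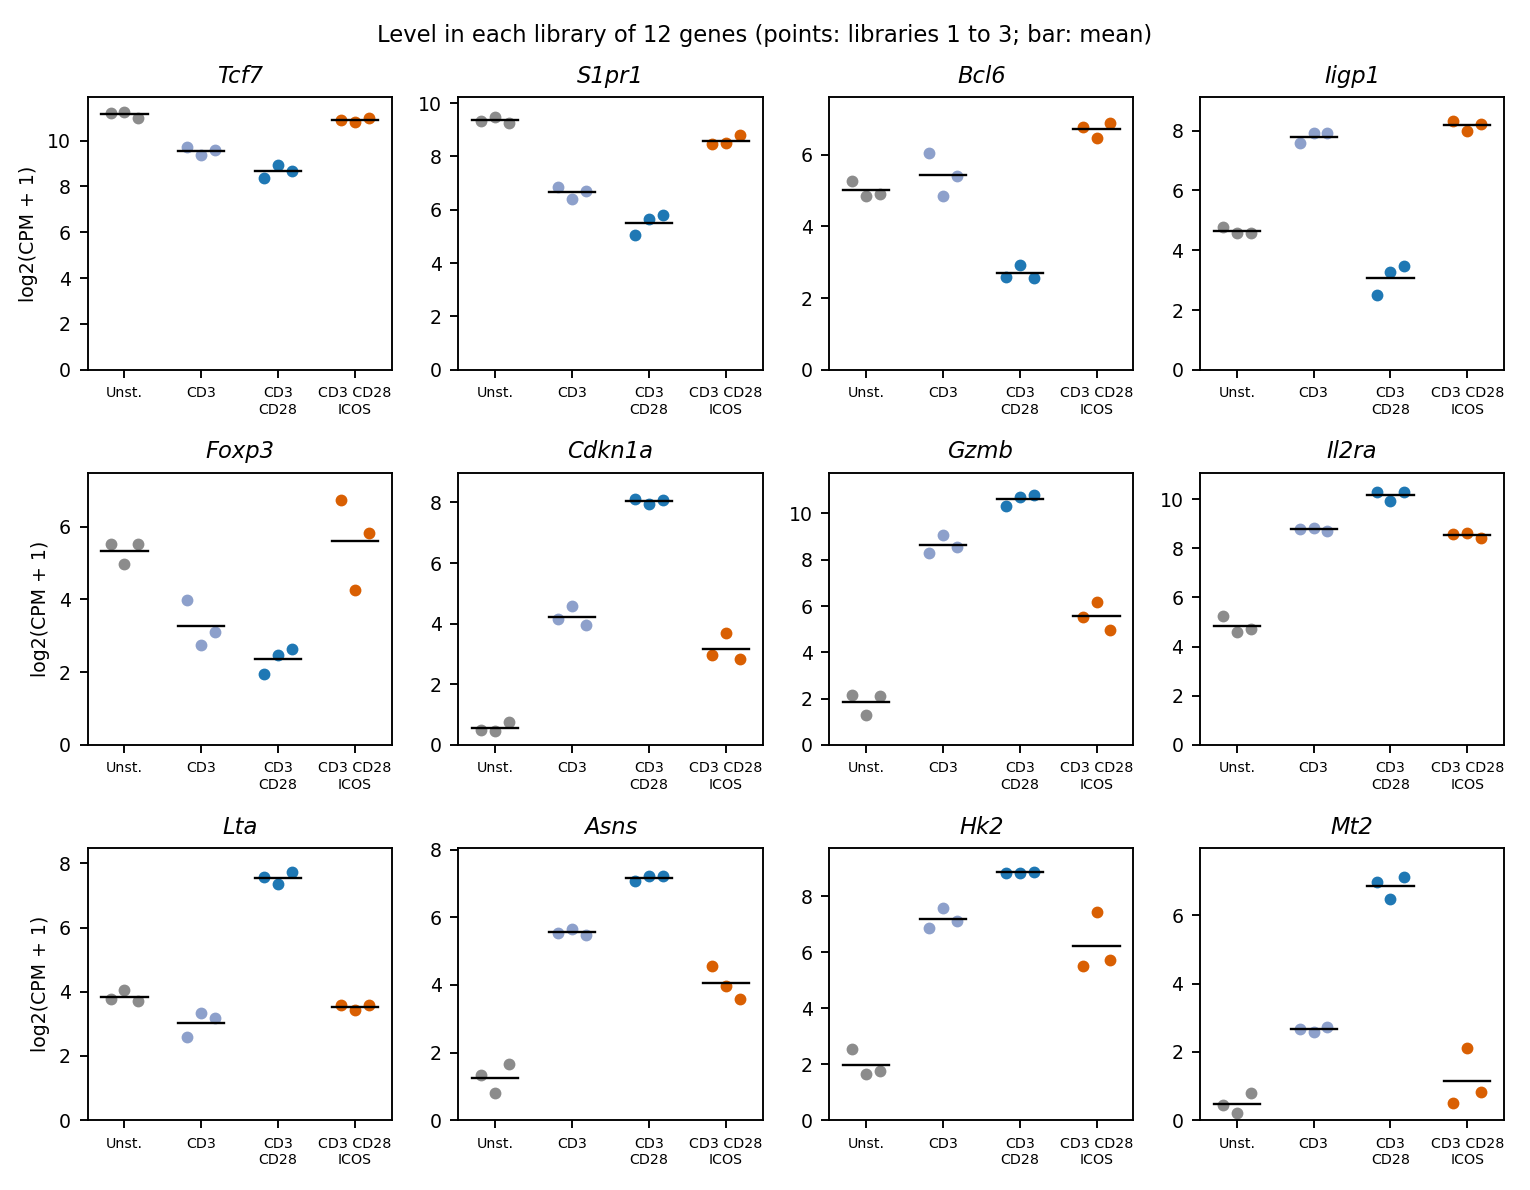
Levels of 12 genes as log2(CPM + 1) (y axis) in each of the 12 libraries, by group (x axis; Unst. is Unstimulated); points are libraries 1 to 3 from left to right, and bars are group means. For each gene the 3 CD3_CD28 values and the 3 CD3_CD28_ICOS values do not overlap.

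Genes of the other helper lineages showed no common direction. Of 15 TH1 genes, 9 rose and 5 fell, 60% and 33.3% beside 38.5% and 24.5% of all tested genes. Cxcr3, a chemokine receptor of TH1 cells, was at 1.10, 1.25 and 1.18 CPM in CD3_CD28 cells and 25.8, 12 and 18.2 CPM in CD3_CD28_ICOS cells (log2 fold change 3.11 ± 0.36, adjusted p = 7.67e-06), and Ifngr1, the interferon-gamma receptor ligand-binding chain, at 87.4, 95.99 and 97.03 CPM in CD3_CD28 cells and 412, 413 and 539 CPM in CD3_CD28_ICOS cells (log2 fold change 2.26 ± 0.16, adjusted p = 1.28e-07). Tbx21, which encodes the TH1 factor T-bet, was at 25.4, 18.04 and 21.8 CPM in CD3_CD28 cells and 41.5, 43.5 and 35.8 CPM in CD3_CD28_ICOS cells (log2 fold change 0.87 ± 0.20, adjusted p = 0.00236). Il12rb1 and Il12rb2, the chains of the interleukin-12 receptor that promotes TH1 cells, fell by 1.62 and 0.96 log2 units. Of 9 tested TH2 genes, 2 rose and 3 fell. Il24 was at 105, 20.9 and 43.7 CPM in CD3_CD28 cells and was listed at 0 in all 3 CD3_CD28_ICOS libraries (adjusted p = 1.40e-07). Irf4, needed for several effector fates, fell from 719, 533 and 662 CPM to 165, 157 and 136 CPM, and the chemokine receptor Ccr4 from 106, 63.5 and 72.6 CPM to 15.8, 29.2 and 20.6 CPM. Gata3, the TH2 factor, was at 204, 144 and 169.7 CPM in CD3_CD28 cells and 138, 230.1 and 160.0 CPM in CD3_CD28_ICOS cells, with overlapping values. Among 5 TH17 genes, Ccr6, a chemokine receptor that B cells also carry, rose from 0.132, 0.358 and 0.157 CPM to 26.4, 8.60 and 33.5 CPM, and CD3 cells had a mean of 23.4 CPM.

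Regulatory T cell genes gave 3 higher and 8 lower of 16 tested, with a median of -0.55; without CD3_CD28 replicate 3 the higher count was 5. Foxp3, the lineage factor, was one of the genes that rose, at 2.86, 4.53 and 5.22 CPM in CD3_CD28 cells and 106, 18.2 and 55.4 CPM in CD3_CD28_ICOS cells (log2 fold change 3.26 ± 0.55, adjusted p = 4.82e-04). Its CD3_CD28_ICOS values spread widely, and all lay above the CD3_CD28 values. Unstimulated cells had 45.1, 30.2 and 45.4 CPM. Ikzf2, which encodes Helios, rose from 30.3, 28.95 and 33.6 CPM to 243, 127 and 212 CPM (log2 fold change 2.56 ± 0.32, adjusted p = 3.03e-05). Il2ra, the interleukin-2 receptor alpha chain that regulatory and activated cells carry, fell from 1251, 971 and 1230.4 CPM to 377, 392 and 344 CPM (log2 fold change -1.62 ± 0.14, adjusted p = 5.70e-07). Ikzf4 (Eos) fell by 0.84 log2 units and Socs2 by 1.92.

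Interferon-stimulated genes formed the next group of rises. Of 46 tested, 36 were higher and 3 lower (5 lower after median of ratios scaling), with a median of 1.54; the median was 1.23 without CD3_CD28 replicate 1, the library with most ribosomal RNA. Iigp1, a GTPase that acts against intracellular parasites, was at 4.66, 8.68 and 10.2 CPM in CD3_CD28 cells and 319, 255 and 298 CPM in CD3_CD28_ICOS cells (log2 fold change 5.09 ± 0.20, adjusted p = 3.82e-09), and at a mean of 224 CPM in CD3 and 24.1 CPM in Unstimulated cells. Irgm1 and Igtp, GTPases of the same family, were at 50.3, 65.2 and 66.2 CPM in CD3_CD28 cells and 288, 257 and 294 CPM in CD3_CD28_ICOS cells and at 265, 284 and 313 CPM in CD3_CD28 cells and 874, 814 and 859 CPM in CD3_CD28_ICOS cells. Gbp4 (2.52 ± 0.18), Gbp7 (2.41 ± 0.13) and Gbp6 (2.24 ± 0.16), guanylate-binding proteins, rose as well. Among regulators, Irf1, a factor of the interferon response, rose from 95.1, 118 and 122 CPM to 375, 382 and 400.1 CPM (log2 fold change 1.78 ± 0.12, adjusted p = 4.28e-08). Samhd1, a restriction factor that degrades nucleotides, gained more CPM than nearly all other genes, from 451, 447 and 472 CPM to 1647, 2397 and 2216 CPM. The exceptions were Bst2, which fell from 26.1, 41.6 and 40.9 CPM to 15.9, 17.1 and 14.9 CPM, and Dhx58 (-0.90 ± 0.27). The call of Isg20 (-0.50 ± 0.20) was lost without CD3_CD28 replicate 2 (-0.36, adjusted p = 0.162) or 3 (-0.38, adjusted p = 0.148) and without CD3_CD28_ICOS replicate 2 (-0.42, adjusted p = 0.109) or 3 (-0.52, adjusted p = 0.0705). Isg15, the ubiquitin-like modifier, did not pass the filter and was at 4.88, 11.2 and 6.08 CPM in CD3_CD28 cells and 3.44, 3.07 and 3.28 CPM in CD3_CD28_ICOS cells. B cells express many of these genes, and the part of the B cell transcripts was not tested; CD3_CD28_ICOS replicate 2, which had the fewest, was lowest of its group for 17 of the 46 genes, beside 47.2% of all tested genes.

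The promoters of Irgm1 and Igtp are shown as examples of members that rose and hold the motif described next. Bst2, which fell, holds it too, and the part of the motif in the changes was not tested. In RefSeq promoters (GRCm38.p6, 250 bases before to 50 after the start), 32 of the 46 tested interferon-stimulated genes had an entry, and 19 of them (59.4%) held GAAANNGAA, the core of the interferon response element, on either strand, against 9.76% of 27025 genes with an entry. Capitals mark the matches, overlapping ones included, and letters run 5′ to 3′ on the gene's strand: Irgm1 is at chr11:48871371-48871670, minus strand, and Igtp at chr11:58199306-58199605, plus strand.
Irgm1: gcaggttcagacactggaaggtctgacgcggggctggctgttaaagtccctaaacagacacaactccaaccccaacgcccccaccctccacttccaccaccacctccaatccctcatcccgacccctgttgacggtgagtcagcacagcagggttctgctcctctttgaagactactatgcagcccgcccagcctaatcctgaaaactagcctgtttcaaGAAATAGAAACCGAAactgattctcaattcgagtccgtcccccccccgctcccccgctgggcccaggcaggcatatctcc
Igtp: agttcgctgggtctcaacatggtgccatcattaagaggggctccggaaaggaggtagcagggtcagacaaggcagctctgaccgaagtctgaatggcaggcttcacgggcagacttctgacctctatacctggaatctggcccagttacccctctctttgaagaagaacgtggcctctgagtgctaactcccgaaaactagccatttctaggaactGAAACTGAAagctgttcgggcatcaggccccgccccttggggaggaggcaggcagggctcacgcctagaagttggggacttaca

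Secreted factors fell. Of 19 tested cytokines and chemokines, 12 were lower and 5 higher, with a median of -1.52. Lta, which encodes lymphotoxin alpha, was at 189, 163 and 211 CPM in CD3_CD28 cells and 10.95, 9.79 and 11.04 CPM in CD3_CD28_ICOS cells (log2 fold change -4.02 ± 0.18, adjusted p = 3.70e-09). Lif, a cytokine of the interleukin-6 family, was at 183, 117 and 151 CPM in CD3_CD28 cells and 11.5, 10.2 and 8.68 CPM in CD3_CD28_ICOS cells (log2 fold change -3.75 ± 0.27, adjusted p = 1.68e-07). CD3 cells had means of 7.43 CPM for Lta and 11.4 CPM for Lif, so CD3_CD28 cells held the high values. Tgfb3 fell from 87.7, 88.4 and 80.05 CPM to 2.93, 9.72 and 3.95 CPM and Tnf from 35.3, 37.01 and 39.7 CPM to 6.80, 5.87 and 5.50 CPM (log2 fold change -2.45 ± 0.26, adjusted p = 4.29e-06). Fasl, the death receptor ligand, fell from 26.99, 28.1 and 35.5 CPM to 6.48, 10.3 and 10.1 CPM. Other cytokines were too low for the filter. Values were separate for Il2, Il13 and Csf2: Il2 was at 1.61, 3.48 and 3.33 CPM in CD3_CD28 cells and 0.355, 0.341 and 0.363 CPM in CD3_CD28_ICOS cells, Il13 at 29.4, 3.76 and 11.5 CPM in CD3_CD28 cells and 1.12, 1.01 and 0.846 CPM in CD3_CD28_ICOS cells, and Csf2 at 5.28, 7.61 and 9.65 CPM in CD3_CD28 cells and 2.11, 1.12 and 1.34 CPM in CD3_CD28_ICOS cells. Ifng, also under the filter, was at 2.42, 0.582 and 1.29 CPM in CD3_CD28 cells and 0.746, 0.561 and 0.327 CPM in CD3_CD28_ICOS cells, with overlapping values. Ccl22, a ligand of Ccr4 that B cells and dendritic cells also make, rose from 5.10, 2.55 and 1.73 CPM to 60.6, 57.3 and 96.7 CPM (log2 fold change 4.18 ± 0.33, adjusted p = 4.90e-07), and Ltb, the membrane partner of lymphotoxin, rose by 0.67 ± 0.10.

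The cytotoxic granule list divided sharply. Gzmb (chr14:56258838-56262260, minus strand, GRCm38), the granule protease granzyme B, fell from 1298, 1669 and 1769 CPM to 45.6, 71.3 and 30.6 CPM (log2 fold change -5.05 ± 0.32, adjusted p = 3.19e-07). CD3 cells had 313, 533 and 377 CPM and Unstimulated cells 3.51, 1.46 and 3.30 CPM. The protease inhibitor Serpinb6b fell from 759, 870.0 and 815 CPM to 134, 194 and 151 CPM, while Serpina3f rose from 0.791, 1.30 and 0.431 CPM to 73.8, 29.8 and 41.1 CPM and Serpina3g from 1.92, 1.10 and 2.22 CPM to 64.3, 18.1 and 36.6 CPM. The serpin genes have near-identical copies that can share reads, so their values are uncertain, as are those of Gbp, Gimap, Slfn, Ifit, Bcl2a1 and MHC genes.

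The list of common gamma chain receptors and STAT5 response genes, the interleukin-2 pathway, gave 22 lower and 5 higher of 29, with a median of -1.27. It holds receptors as well as response genes, and Bcl6 is among the 5 higher. The higher count was 3 without CD3_CD28 replicate 2 and after median of ratios scaling. Cish, a direct STAT5 target that limits the pathway, was at 421, 468 and 434 CPM in CD3_CD28 cells and 52.1, 81.01 and 59.6 CPM in CD3_CD28_ICOS cells (log2 fold change -2.78 ± 0.21, adjusted p = 2.84e-07). Bcl2l1 (Bcl-xL), Bcl2 and Pim1, which promote survival, were separate as well. Bcl2l1 fell from 186, 232 and 205 CPM to 60.04, 46.9 and 43.9 CPM, Bcl2 from 432, 417 and 475 CPM to 153, 173 and 154 CPM, and Pim1 from 375, 349 and 426 CPM to 112, 121 and 123 CPM. Cdk6, a kinase of G1 progression, fell from 485, 371 and 538 CPM to 76.98, 49.97 and 61.7 CPM (log2 fold change -2.87 ± 0.17, adjusted p = 2.90e-08). The receptors did not move as one: Il2ra fell, Il2rb was at 1233, 1148 and 1242 CPM in CD3_CD28 cells and 963, 1495 and 967 CPM in CD3_CD28_ICOS cells with overlapping values, and Il2rg, the shared chain, rose from 281, 320.3 and 333 CPM to 638, 526 and 615 CPM. Jak1 rose by 1.25 ± 0.09, and Bcl6, which STAT5 represses, rose as given above.

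Transcription factors of receptor signalling differed by family. Of 13 NFAT and calcineurin genes, 6 were higher and 1 lower, 46.2% and 7.69% beside 38.5% and 24.5% of all tested genes. After median of ratios scaling the counts were 5 and 3, and without CD3_CD28_ICOS replicate 2, 2 were lower. Nfatc1, which encodes NFAT2, was at 219, 273 and 283 CPM in CD3_CD28 cells and 351, 309 and 362 CPM in CD3_CD28_ICOS cells (log2 fold change 0.41 ± 0.11, adjusted p = 0.00542), with a log2 fold change of 0.26, adjusted p = 0.0282, after median of ratios scaling. Nfatc2 (NFAT1) was at 172, 169 and 178 CPM in CD3_CD28 cells and 135, 192 and 150.1 CPM in CD3_CD28_ICOS cells, with overlapping values (log2 fold change -0.14 ± 0.11, adjusted p = 0.29), and was called lower without CD3_CD28_ICOS replicate 2 (-0.28, adjusted p = 0.0164). Nfat5, the family member that responds to salt and not to calcium, fell from 386, 406 and 431 CPM to 151, 178 and 198 CPM (log2 fold change -1.22 ± 0.10, adjusted p = 2.07e-07). Ppp3ca, a calcineurin catalytic subunit, rose from 19.1, 18.7 and 26.7 CPM to 62.4, 53.6 and 62.7 CPM. Rcan1, an NFAT-induced calcineurin inhibitor, was at 7.12, 8.95 and 9.02 CPM in CD3_CD28 cells and 10.1, 8.67 and 10.4 CPM in CD3_CD28_ICOS cells.

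Of 12 AP-1 and related genes, 0 were higher and 3 lower, with 1 higher without CD3_CD28 replicate 1 or without CD3_CD28 replicate 3. In a fit of the 9 stimulated libraries, an alternative for lists chosen after seeing the data, the counts were 2 and 4. Atf3 fell from 72.9, 71.3 and 53.7 CPM to 2.50, 5.83 and 1.62 CPM (log2 fold change -4.06 ± 0.54, adjusted p = 5.80e-05) and Fosl2 from 266, 322 and 226 CPM to 38.9, 107 and 72.97 CPM (log2 fold change -1.98 ± 0.43, adjusted p = 0.00249). Junb was at 411, 472 and 412 CPM in CD3_CD28 cells and 220.2, 296 and 226 CPM in CD3_CD28_ICOS cells. Its groups did not overlap, but the fit over 12 libraries, in which the Unstimulated libraries stood at 232, 161 and 1790.3 CPM, gave an adjusted p of 0.356. With the 9 stimulated libraries its log2 fold change was -0.81, adjusted p = 2.28e-04. Fos was at 3.60, 10.7 and 7.53 CPM in CD3_CD28 cells and 13.4, 19.9 and 23.7 CPM in CD3_CD28_ICOS cells (log2 fold change 1.34 ± 1.12, adjusted p = 0.323), and with the 9 stimulated libraries its log2 fold change was 1.34, adjusted p = 0.0035. Jund, at 165, 145 and 184 CPM in CD3_CD28 cells and 236, 209 and 244 CPM in CD3_CD28_ICOS cells, likewise had an adjusted p of 0.228 over 12 libraries, against a log2 fold change of 0.48, adjusted p = 0.00203, with 9. Batf was at 53.4, 32.4 and 36.3 CPM in CD3_CD28 cells and 49.5, 36.2 and 46.02 CPM in CD3_CD28_ICOS cells, with overlapping values; it was called higher (0.46, adjusted p = 0.00814) when both CD3_CD28 replicate 1 and CD3_CD28_ICOS replicate 2 were left out, an alternative chosen after seeing the data. Receptor-induced factors of other families gave 5 higher and 6 lower of 19. Bhlhe40 fell from 1010.1, 1208 and 937 CPM to 154, 283 and 150.0 CPM and Myc, the growth factor response gene, from 256, 309 and 316 CPM to 136, 97.3 and 118 CPM (log2 fold change -1.33 ± 0.13, adjusted p = 1.06e-06). Ikzf3, which encodes Aiolos, rose from 89.2, 82.8 and 86.1 CPM to 617, 465 and 537 CPM (log2 fold change 2.63 ± 0.14, adjusted p = 1.13e-08). The early receptor-response genes Nr4a1 (199.9, 393 and 289 against 263, 175 and 274 CPM) and Egr1 (118, 187 and 155 against 174, 121 and 198 CPM) had overlapping values. Egr2, linked to anergy, rose by 0.78 ± 0.27, though its groups overlapped and the call was lost after median of ratios scaling (0.64, adjusted p = 0.0633), without CD3_CD28 replicate 1 (0.81, adjusted p = 0.0522) or 2 (0.70, adjusted p = 0.0815) and without CD3_CD28_ICOS replicate 1 (0.55, adjusted p = 0.108) or 3 (0.65, adjusted p = 0.0954).

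Glycolysis and the targets of the oxygen-sensing factor HIF fell. Of 24 tested glycolysis and lactate export genes, 20 were lower and 0 higher (1 higher without CD3_CD28_ICOS replicate 1), with a median of -1.09. Hk2, the first kinase of glycolysis in activated T cells, was at 454, 455 and 465 CPM in CD3_CD28 cells and 43.8, 170.4 and 51.9 CPM in CD3_CD28_ICOS cells (log2 fold change -2.63 ± 0.45, adjusted p = 5.57e-04). Slc2a1, the glucose transporter GLUT1, was at 350.1, 450.3 and 354 CPM in CD3_CD28 cells and 59.6, 186 and 75.7 CPM in CD3_CD28_ICOS cells (log2 fold change -2.00 ± 0.37, adjusted p = 7.89e-04), and Slc2a3 (GLUT3) at 2062, 2298 and 1849 CPM in CD3_CD28 cells and 175, 1170.3 and 437 CPM in CD3_CD28_ICOS cells (log2 fold change -2.20 ± 0.56, adjusted p = 0.00705). The call of Slc2a3 was lost in the fit of the 6 libraries alone (adjusted p = 0.0539). In each, replicate 2 was the highest CD3_CD28_ICOS library and lay between its fellows and the CD3_CD28 values. Of 21 HIF targets, 16 were lower and 1 higher, with a median of -1.49. Egln3, an oxygen sensor that HIF induces, was at 868, 785 and 806 CPM in CD3_CD28 cells and 15.7, 157 and 38.8 CPM in CD3_CD28_ICOS cells (log2 fold change -4.12 ± 0.66, adjusted p = 5.00e-04). Nos2, the inducible nitric oxide synthase, fell from 71.3, 101 and 68.5 CPM to 1.36, 7.25 and 1.02 CPM, and Ero1l, an oxidase of protein folding, from 1469, 1480.4 and 1156 CPM to 85.4, 366 and 114 CPM. Hif1a itself was at 841, 629.7 and 705 CPM in CD3_CD28 cells and 698, 736 and 756 CPM in CD3_CD28_ICOS cells, with overlapping values (log2 fold change 0.02 ± 0.11, adjusted p = 0.897). CD3_CD28_ICOS replicate 2 was the highest of its group for 20 of 21 HIF targets and 23 of 24 glycolysis genes, beside 27.9% of all tested genes. Without it the medians were -1.97 and -1.31.

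**Figure D3:**
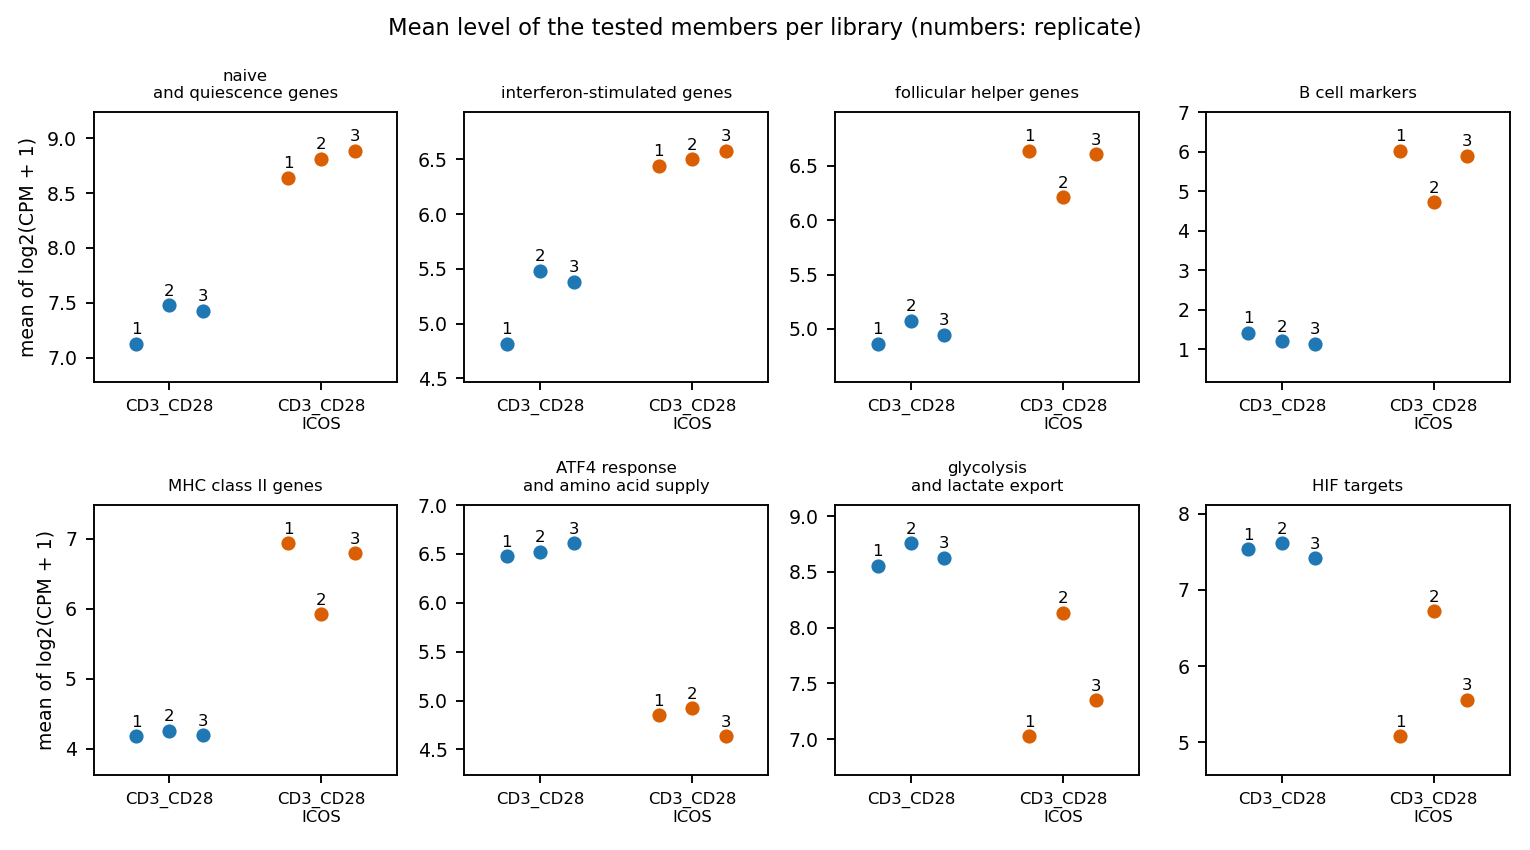
Mean log2(CPM + 1) of the tested members of 8 gene lists (y axis, scaled for each panel and not starting at 0) in each library of the groups compared (x axis); numbers are replicates. CD3_CD28_ICOS replicate 2 is lowest of its group for B cell markers (4.72) and highest for HIF targets (6.72), and the groups do not overlap in any panel.

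Amino acid supply genes controlled by the stress factor ATF4 fell almost without exception. Of 34 tested, 30 were lower and 0 higher, with a median of -1.68. Atf4 was at 471, 513 and 481 CPM in CD3_CD28 cells and 104, 118 and 111 CPM in CD3_CD28_ICOS cells (log2 fold change -2.13 ± 0.14, adjusted p = 4.62e-08). Asns, asparagine synthetase, was at 134, 148 and 150.0 CPM in CD3_CD28 cells and 22.6, 14.8 and 11.04 CPM in CD3_CD28_ICOS cells (log2 fold change -3.13 ± 0.23, adjusted p = 1.76e-07). Ddit3, which encodes CHOP, fell from 92.3, 109 and 90.5 CPM to 14.3, 22.2 and 17.1 CPM, and Slc7a5, the large neutral amino acid transporter, from 287, 299.8 and 322 CPM to 72.9, 35.8 and 37.9 CPM (log2 fold change -2.68 ± 0.20, adjusted p = 2.07e-07). Unlike the HIF targets, these genes did not set CD3_CD28_ICOS replicate 2 apart: it was the highest of its group for 12 and the lowest for 13 of 34. Among 19 aminoacyl-tRNA synthetases, which load amino acids onto transfer RNA, 14 were lower and 1 higher (18 lower after median of ratios scaling). Cars, for cysteine, fell from 134, 159.9 and 148 CPM to 34.6, 35.7 and 25.1 CPM and Iars, for isoleucine, from 272, 314 and 308 CPM to 104, 74.2 and 68.7 CPM. Wars, for tryptophan, which is also induced by interferon, rose from 49.4, 43.6 and 67.5 CPM to 178, 166 and 160.1 CPM (log2 fold change 1.66 ± 0.13, adjusted p = 1.52e-07).

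TGATGCAA, a form of the response element that ATF4 binds with its partners, was present on either strand in 5 of 29 promoters of the amino acid supply list (Atf3, Chac1, Pycr1, Slc1a4 and Vldlr) and in 4 of 12 of the synthetases (Aars, Iars, Tars and Yars), against 1.03% of all genes with an entry. Chac1, a glutathione-degrading enzyme at 10.3, 10.9 and 10.7 CPM in CD3_CD28 cells and 1.68, 1.08 and 0.317 CPM in CD3_CD28_ICOS cells, and Iars are shown as 1 member of each list that holds it, with the match in capitals. Chac1 is at chr2:119350992-119351291, plus strand, and Iars at chr13:49681880-49682179, plus strand.
Chac1: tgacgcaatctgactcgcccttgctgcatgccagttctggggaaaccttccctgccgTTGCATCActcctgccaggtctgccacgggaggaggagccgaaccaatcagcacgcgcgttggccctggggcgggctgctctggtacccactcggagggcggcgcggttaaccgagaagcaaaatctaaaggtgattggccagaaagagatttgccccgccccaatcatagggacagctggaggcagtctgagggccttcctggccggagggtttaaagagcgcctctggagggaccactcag
Iars: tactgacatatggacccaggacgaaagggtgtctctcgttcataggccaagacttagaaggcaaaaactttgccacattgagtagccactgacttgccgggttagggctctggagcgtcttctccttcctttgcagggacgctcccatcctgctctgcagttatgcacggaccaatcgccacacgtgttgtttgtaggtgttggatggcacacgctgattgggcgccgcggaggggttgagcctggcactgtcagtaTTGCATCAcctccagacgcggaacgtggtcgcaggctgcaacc

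Metallothioneins, small proteins that bind zinc and copper, gave the largest fall of any tested gene named by fold. Mt2 (chr8:94172664-94173568, plus strand, GRCm38) was at 126, 88.7 and 139 CPM in CD3_CD28 cells and 0.426, 3.29 and 0.776 CPM in CD3_CD28_ICOS cells (log2 fold change -5.72 ± 0.33, adjusted p = 2.90e-08), and Mt1 (chr8:94179082-94180327, plus strand), its neighbour, at 121, 97.02 and 129 CPM in CD3_CD28 cells and 2.42, 7.51 and 2.75 CPM in CD3_CD28_ICOS cells (log2 fold change -4.60 ± 0.29, adjusted p = 6.21e-08). CD3 cells had means of 5.30 and 10.5 CPM, so the CD3_CD28 cells held the high values. Of 10 metallothionein and zinc transport genes, 8 were lower and 0 higher, with 1 higher without CD3_CD28_ICOS replicate 2. The promoters of Mt1 and Mt2 are shown because both genes fell in all CD3_CD28_ICOS libraries. The metal response element core TGCGCNC was present on either strand in 5 of 8 promoters of the list, against 17% of all genes with an entry. Mt1 is at chr8:94178839-94179138, plus strand, and Mt2 at chr8:94172368-94172667, plus strand.
Mt1: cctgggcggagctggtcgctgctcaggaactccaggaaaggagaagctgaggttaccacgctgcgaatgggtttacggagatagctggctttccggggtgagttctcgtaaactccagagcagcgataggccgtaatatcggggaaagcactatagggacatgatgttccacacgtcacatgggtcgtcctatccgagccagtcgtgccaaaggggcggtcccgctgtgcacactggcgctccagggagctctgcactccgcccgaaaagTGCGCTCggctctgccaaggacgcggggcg
Mt2: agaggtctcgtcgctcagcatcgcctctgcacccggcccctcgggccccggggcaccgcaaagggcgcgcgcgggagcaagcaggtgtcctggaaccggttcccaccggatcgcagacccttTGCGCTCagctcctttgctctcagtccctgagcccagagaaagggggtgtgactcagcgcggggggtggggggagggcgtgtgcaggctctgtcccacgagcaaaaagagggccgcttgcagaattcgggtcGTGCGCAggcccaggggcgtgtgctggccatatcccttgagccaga

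**Figure D4:**
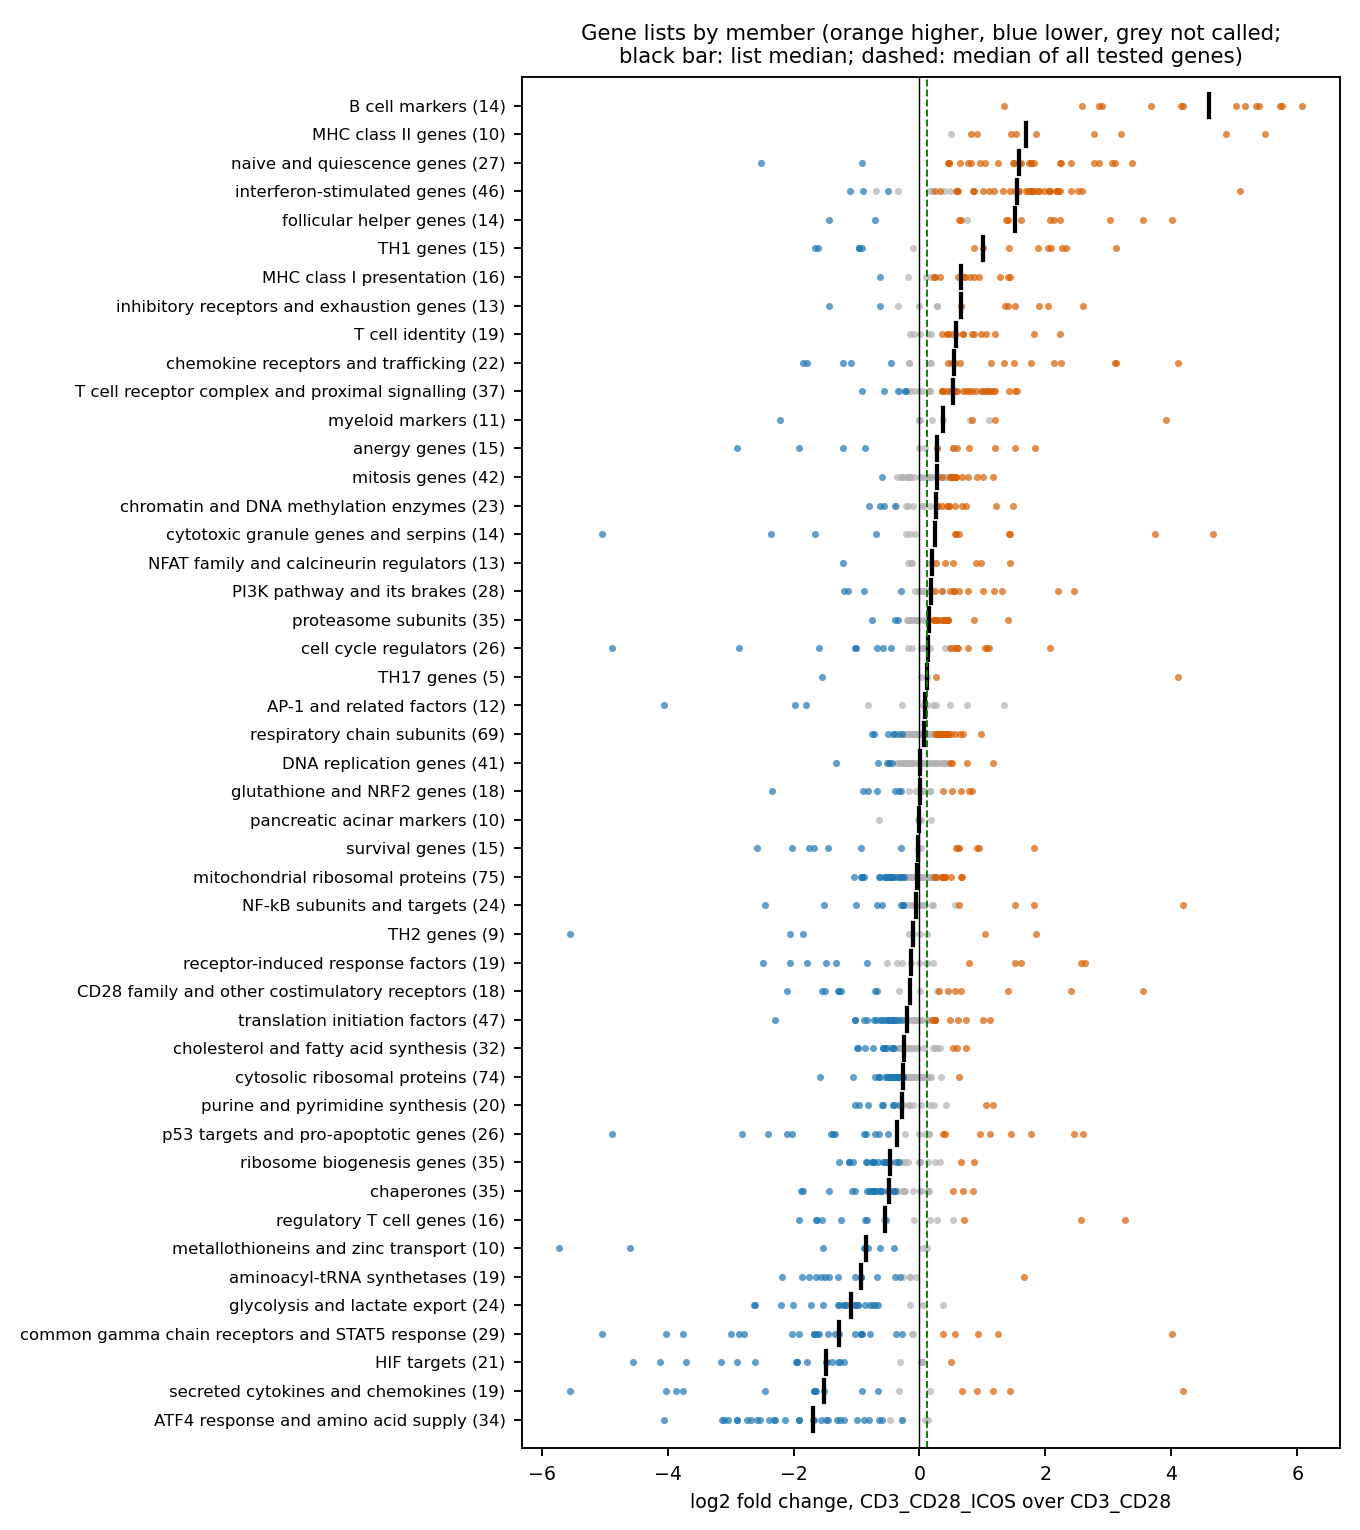
Log2 fold change (CD3_CD28_ICOS over CD3_CD28, x axis) of every tested member of each gene list with at least 5 tested members (y axis, number tested in parentheses). Orange points were called higher, blue lower and grey not called; black bars are list medians and the dashed line is the median of all tested genes, 0.13. B cell markers have the highest median (4.60) and ATF4 response genes the lowest (-1.68); without CD3_CD28_ICOS replicate 2 the medians of HIF targets (-1.97) and of secreted cytokines (-1.72) lay below that of ATF4 response genes (-1.66).

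Biosynthesis shifted by smaller amounts. Of 35 ribosome biogenesis genes, 19 were lower and 2 higher, with a median of -0.47. Without CD3_CD28_ICOS replicate 2 the higher count was 5 and the median -0.23, and without CD3_CD28_ICOS replicate 1 the median was -0.68, with 26 lower. Cytosolic ribosomal protein genes gave 32 lower and 1 higher of 74, with 2 higher without CD3_CD28_ICOS replicate 2. Their lower count was 48 after median of ratios scaling and 24 without CD3_CD28 replicate 2. Chaperones gave 20 lower and 3 higher of 35, with Hspa9, of the mitochondrial matrix, falling from 702, 781 and 770.1 CPM to 265, 168 and 185 CPM. Translation initiation factors gave 21 lower and 9 higher of 47, with 5 higher without CD3_CD28 replicate 1. Eif4ebp1, which holds back cap-dependent translation and is itself an ATF4 target, fell from 96.5, 111 and 94.8 CPM to 13.9, 34.6 and 15.8 CPM. The elongation factors Eef1a1 (-0.38 ± 0.08) and Eef2 (-0.37 ± 0.08) fell on the deposited scale and after median of ratios scaling (-0.53, adjusted p = 6.04e-05 and -0.51, adjusted p = 2.58e-04). Quantile normalization gives genes of the same rank the same value, so it could show no change in genes that hold the same rank in all 6 libraries, as these do. Cholesterol and fatty acid synthesis gave 11 lower and 3 higher of 32, or 17 lower after median of ratios scaling and 17 without CD3_CD28_ICOS replicate 2. Purine and pyrimidine synthesis gave 8 lower and 2 higher of 20, or 13 lower after median of ratios scaling. Respiratory chain and proteasome subunits had no direction that held: 21 higher and 7 lower of 69 respiratory subunits became 12 and 19, and 13 and 3 of 35 proteasome subunits became 8 and 11 after median of ratios scaling. The proteasome counts were 7 and 4 without CD3_CD28 replicate 1, and 8 and 6 without CD3_CD28_ICOS replicate 1.

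Division genes differed little as lists, while single regulators differed widely. Of 41 DNA replication genes, 4 were higher and 5 lower, with a median of 0.02, or -0.13 after median of ratios scaling. Leaving out CD3_CD28_ICOS replicate 1 gave 10 lower, and leaving out CD3_CD28 replicate 3 or CD3_CD28_ICOS replicate 3 gave 9 and 7 higher. The lower count was 3 without CD3_CD28 replicate 2 or 3 or CD3_CD28_ICOS replicate 3, and the higher count 2 without CD3_CD28 replicate 1 or CD3_CD28_ICOS replicate 1. Mitosis genes gave 12 higher and 1 lower of 42. The higher count was 7 after median of ratios scaling, and also without CD3_CD28 replicate 1, CD3_CD28_ICOS replicate 1 or CD3_CD28_ICOS replicate 2. Without both CD3_CD28 replicate 1 and CD3_CD28_ICOS replicate 2 the mitosis counts were 5 higher and 4 lower. Mki67, a marker of cycling cells, was at 609, 1058 and 908 CPM in CD3_CD28 cells and 1283, 1415 and 955 CPM in CD3_CD28_ICOS cells, with overlapping values (log2 fold change 0.52 ± 0.26, adjusted p = 0.101), and was called higher in the fit of the 9 stimulated libraries (adjusted p = 0.0372). Cdkn1a (chr17:29090976-29100727, plus strand, GRCm38), the cell cycle inhibitor p21, was at 274, 248 and 269 CPM in CD3_CD28 cells and 6.90, 12.04 and 6.07 CPM in CD3_CD28_ICOS cells (log2 fold change -4.88 ± 0.21, adjusted p = 3.70e-09). It was at 16.7, 22.9 and 14.7 CPM in CD3 cells, so CD3_CD28 cells stood apart. The G1 cyclins Ccnd2 and Ccnd3 fell, from 1202, 1051 and 1383 CPM to 558, 651 and 565 CPM and from 274, 338 and 336 CPM to 97.7, 116 and 96.7 CPM. Myb, a factor of proliferating lymphocytes, rose from 26.7, 64.3 and 55.97 CPM to 276, 115 and 234 CPM (log2 fold change 2.07 ± 0.40, adjusted p = 0.00113). Among 26 p53 targets and pro-apoptotic genes, 13 were lower and 8 higher. Bcl2l11 (BIM), which opposes Bcl2, rose from 45.2, 57.5 and 47.5 CPM to 245, 364 and 319.7 CPM (log2 fold change 2.59 ± 0.15, adjusted p = 2.90e-08), opposite to Bcl2 and Bcl2l1 in the same libraries. Survival genes gave 6 higher and 7 lower of 15.

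Several single genes outside these lists changed by as much. Among falls, Lama5, a laminin chain, was at 129, 71.2 and 105 CPM in CD3_CD28 cells and 1.28, 2.21 and 2.01 CPM in CD3_CD28_ICOS cells (log2 fold change -5.16 ± 0.24, adjusted p = 4.41e-09). The complement gene C3 fell from 120.0, 107 and 87.3 CPM to 1.25, 11.6 and 2.57 CPM, and Zbtb32, a repressor of activated lymphocytes, from 100.2, 83.6 and 126 CPM to 3.78, 5.16 and 4.87 CPM. Tgm2, a transglutaminase, fell from 933, 753 and 847 CPM to 22.4, 101 and 43.9 CPM. Among rises, Ifi209, an interferon-induced gene, was at 1.19, 7.31 and 7.50 CPM in CD3_CD28 cells and 280.3, 188 and 284 CPM in CD3_CD28_ICOS cells (log2 fold change 5.53 ± 0.44, adjusted p = 2.59e-06), and Ifit1bl1 at 0.528, 1.88 and 2.27 CPM in CD3_CD28 cells and 134, 94.7 and 170.4 CPM in CD3_CD28_ICOS cells. Wdfy4 and Mef2c, which B cells express, were at 0.484, 0.761 and 0.431 CPM in CD3_CD28 cells and 152, 45.8 and 119.7 CPM in CD3_CD28_ICOS cells and at 0.22, 0.0895 and 0.392 CPM in CD3_CD28 cells and 115, 36.5 and 83.7 CPM in CD3_CD28_ICOS cells, and in both replicate 2 was the lowest CD3_CD28_ICOS library, as for the B cell markers.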

How the data were processed

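Total RNA of primary mouse CD4+ T cells was sequenced paired-end, per the labels' protocols, and Partek version 10, DESeq2 and mm10 are the tools and build listed in the submitters' processing notes. Aligner, counting step and use of strand: not given in the sources used here. The authors deposited CPM values, read here after removing an offset of 0.0001 found in every cell; whole reads could not be recovered, since 76.4 to 81.4% of values up to 1.2 CPM were whole multiples of the step of 1 read within 0.02 of a step, and count tests were not run. Depth was estimated as the inverse of that step. The authors' deposited table of p-values, ratios and log2 values for this comparison, fed with CPM-scale signal totals per its columns, was read only for its calls.

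Groups and replicate numbers came from the labels, and 0 per-sample columns were left unmatched. The main test was limma 3.58.1 in R 4.3.3 on log2(CPM + 1) over all 12 libraries, with a mean per group, a mean-variance trend and robust eBayes. P-values were Benjamini-Hochberg adjusted over 9826 genes in 1 comparison, with a threshold of 0.05. A gene could pass the CPM filter through any group. The fit was tested on simulated data. Gene lists, 51 in all, are described by counts and medians only. The comparison, its lists and members were chosen with earlier results of these data known. Named genes are the 12 largest rises and falls by fold, the 8 by CPM, up to 5 called per direction per list, a few uncalled or filtered members, and genes of the costimulation question. The genes Atf4, Bach2, Cd3d, Chac1, Cish, Csf2, Ddit3, Egr1, Foxo1, Gata3, Ighm, Igtp, Irf1, Irgm1, Nr4a1, Rcan1, Slc7a5 and Tbx21 were chosen after their values were seen. Some genes that the rule names are not reported here. Coordinates are GENCODE M21 (mm10, GRCm38). Alternatives were other pseudocounts, filters, scalings, library sets, a replicate term and leaving out libraries.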

Additional observations from a re-analysis of the deposited data

How the results depend on the processing

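With the added requirement of at least 1 log2 unit, the calls were 1066 higher and 682 lower in place of 3787 and 2403. Leaving out each of the 6 libraries in turn gave 3278 to 3833 genes higher and 2055 to 2468 lower, and leaving out both CD3_CD28 replicate 1 and CD3_CD28_ICOS replicate 2, chosen after seeing the data, gave 3423 and 2417. Scaling moved the split most: 3083 higher and 3264 lower after median of ratios scaling, 3224 and 3115 after quantile normalization, and 3544 and 2775 with the ribosomal RNA gene removed. The 6 libraries alone gave 3485 and 2137. With no filter on level, 5560 and 3200 were called. None of the genes called on the deposited scale was called in the opposite direction under any of these. The labels do not say whether the replicate numbers pair the samples. Deviations of same-numbered libraries had correlations of -0.0999, 0.194 and 0.0582 across genes, and those of differently numbered libraries ran from -0.329 to 0.326. With 3 libraries a group these values cannot settle it. With the replicate number as a block 3734 and 2387 genes were called, 97.7% of the unblocked calls among them. Genes near 0 in one group depend on the pseudocount: Ccr6 had 2.29 with a pseudocount of 5, in place of 4.11. The authors' deposited table, at an adjusted p under 0.05, has 2162 genes higher and 1181 lower of 17144, and 2972 of its calls were also made here, all in the same direction. Among the genes tested here, 3218 were called here only and 9 by the authors only. Anti-CD3 format and anti-ICOS cannot be told apart, and 3 libraries a group limit precision.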

Other observations

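Of 22 tested trafficking receptors, 13 were higher and 5 lower, beside 38.5% and 24.5% of all genes. The lower count was 3 without CD3_CD28 replicate 2, CD3_CD28_ICOS replicate 1 or CD3_CD28_ICOS replicate 3. Cxcr4, the receptor for the chemokine CXCL12, fell from 121, 108 and 85.3 CPM to 44.95, 63.5 and 39.4 CPM, and Cd69, an activation marker that holds cells in lymph nodes by removing S1pr1 from the surface, from 58.4, 92.9 and 77.2 CPM to 32.5, 29.3 and 33.2 CPM. Cd69 was close to the threshold (log2 fold change -1.22 ± 0.46, adjusted p = 0.041). MHC class I presentation gave 12 higher and 1 lower of 16. The higher count was 9 after median of ratios scaling, and also without CD3_CD28 replicate 1 or CD3_CD28_ICOS replicate 2. The part of the B cell transcripts in the class I values was not tested. Nlrc5, the class I transactivator, was at 82.8, 89.2 and 111 CPM in CD3_CD28 cells and 227, 246 and 298 CPM in CD3_CD28_ICOS cells (log2 fold change 1.44 ± 0.14, adjusted p = 9.19e-07), Psmb10, an immunoproteasome subunit, rose by 1.40 ± 0.12, and Tapbp, the peptide-loading chaperone tapasin, by 1.28 ± 0.10. H2-T22, a non-classical class I gene, was called lower (log2 fold change -0.63 ± 0.13, adjusted p = 0.00101).

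Inhibitory receptor genes gave 7 higher and 2 lower of 13 (1 lower when any 1 of the 6 libraries was left out), with Cd101 at 8.97, 6.44 and 7.57 CPM in CD3_CD28 cells and 44.2, 52.3 and 57.8 CPM in CD3_CD28_ICOS cells and Entpd1, the ectonucleotidase CD39, at 4.62, 3.85 and 3.02 CPM in CD3_CD28 cells and 17.2, 22.6 and 16.8 CPM in CD3_CD28_ICOS cells. Anergy genes gave 7 higher and 4 lower of 15, 46.7% and 26.7% beside 38.5% and 24.5% of all tested genes. NF-kB subunits and targets gave 4 higher and 8 lower of 24, with a median of -0.05 (5 lower without CD3_CD28 replicate 2). Without CD3_CD28_ICOS replicate 2 the counts were 6 and 6 and the median 0.02, so the list had no direction that held. Nfkb2, of the non-canonical pathway, fell from 276, 437 and 323 CPM to 203, 133 and 173 CPM, and the inhibitors went apart, Nfkbib falling (log2 fold change -1.52 ± 0.13, adjusted p = 3.25e-07) and Nfkbie rising by 1.51 ± 0.18. Chromatin enzymes gave 11 higher and 4 lower of 23, 47.8% and 17.4%. The chromatin counts were 8 and 5 after median of ratios scaling or quantile normalization. They were 8 and 4 without CD3_CD28 replicate 1, and 9 and 6 without CD3_CD28_ICOS replicate 2. The histone H3 methyltransferase genes Kmt2a (1.48 ± 0.13) and Kmt2d (1.21 ± 0.13) rose, while Ezh2, of the repressive Polycomb complex, fell from 207, 274 and 224 CPM to 141, 147 and 115 CPM. Mitochondrial ribosomal protein genes gave 10 higher and 21 lower of 75. The counts were 3 and 31 after median of ratios scaling, and 5 were higher without CD3_CD28_ICOS replicate 1. Glutathione and NRF2 genes gave 5 higher and 7 lower of 18, with Hmox1, heme oxygenase, at 14.3, 12.8 and 11.2 CPM in CD3_CD28 cells and 1.63, 2.50 and 1.13 CPM in CD3_CD28_ICOS cells (log2 fold change -2.35 ± 0.32, adjusted p = 3.46e-05). Cell cycle regulators gave 9 higher and 8 lower of 26, and dendritic cell markers 0 and 1 of 2. The lower marker was Bst2, already counted among the interferon-stimulated genes. The summed level of replication-dependent histones, of which 1 of 7 listed genes was tested, was 52.97, 88.9 and 82.9 CPM in CD3_CD28 and 101, 122 and 76.4 CPM in CD3_CD28_ICOS libraries.

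The other motifs searched, on both strands of the RefSeq promoters, were TTTGGCGC (E2F), held by 6 of 33 promoters of DNA replication genes against 0.585% of all genes, TCACNCCAC (sterol response), held by 1 of 22 of cholesterol and fatty acid genes against 1.44%, TGANTCA (AP-1), held by 0 of 11 of AP-1 genes and 3 of 14 of cytokine genes against 8.97%, and GGAAA (NFAT), held by 12 of 14 of cytokine genes against 64.4%. A match is a description of these letters in the window and not evidence of binding.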
